A study of Homo sapiens with 4 samples.

Results

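HSP90 and its co-chaperones were followed in breast cancer cells given MS1943, which the series title calls an EZH2 degrader. The set holds 10 genes named by symbol, out of 56865 genes measured: the cytosolic HSP90 genes HSP90AA1 and HSP90AB1 and the co-chaperone genes AHSA1, CHORDC1, STIP1, CDC37, FKBP4, FKBP5, PTGES3 and STUB1. RNA-seq was made from MDA-MB-468, spelled MDA-MD-468 in the sample labels, a human triple negative breast cancer line, at passage 12. The groups are 5 µM MS1943 for 3 days (n = 2) and DMSO, its vehicle (n = 2). The labels give no time for DMSO. Dishes were seeded in duplicate, but the labels do not say that the libraries of a group came from independent cultures, and the spread that the p-values rest on may therefore be technical. The titles carry a single letter for each DMSO library (A, E) and several for each MS1943 library (BCD, FGH), and whether these mark pooled dishes or pairs is not stated. All libraries come from 1 cell line, and messenger RNA says nothing of the amount or activity of the proteins.

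HSP90 is an ATP-driven chaperone that folds and holds kinases, steroid hormone receptors and other client proteins late in their maturation. HSP90AA1 encodes the stress-inducible alpha form and HSP90AB1 the more constitutive beta form. Co-chaperones hand clients over from HSP70, slow or speed the ATPase cycle, or send clients to the proteasome. The transcription factor HSF1 induces several of these genes by binding heat shock elements, repeats of the letters GAA in alternating orientation.

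The promoter windows of the set are shown first, since HSP90AA1 has 2 start regions whose main transcripts differed in direction in TPM. RefSeq windows, from 250 bases before to 50 bases after a start site, were found for 8 of the 10 genes, 14 windows in all, and not for FKBP4 or STUB1. Both strands were searched for 2 alternating units, GAANNTTC or TTCNNGAA, and for 3, GAANNTTCNNGAA or TTCNNGAANNTTC. Matches of 3 units contain overlapping matches of 2. The 3-unit letters stood in 3 of the 14 windows, of HSP90AA1, HSP90AB1 and CHORDC1, against 0.49% of all 35116 windows. The 2-unit letters stood in 4 of the 14, of those genes and of STIP1, against 13.5% of all windows. Counted by gene, 3 of 8 stood against 0.61% of all genes with a window, and 4 of 8 against 16.2%. Below are the 200 bases before the start site, 5′ to 3′, with 3-unit letters in capitals (GRCh38.p14). The HSP90AA1 stretches are chr14:102087045-102087244 and, for the upstream start, chr14:102139750-102139949, both on the minus strand. The HSP90AB1 stretch is chr6:44247743-44247942 on the plus strand, and the CHORDC1 stretch is chr11:90223050-90223249 on the minus strand.
HSP90AA1 downstream start: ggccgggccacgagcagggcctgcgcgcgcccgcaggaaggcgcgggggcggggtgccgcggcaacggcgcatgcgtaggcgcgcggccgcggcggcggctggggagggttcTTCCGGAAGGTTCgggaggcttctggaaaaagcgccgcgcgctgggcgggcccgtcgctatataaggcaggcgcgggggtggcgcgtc
HSP90AA1 upstream start: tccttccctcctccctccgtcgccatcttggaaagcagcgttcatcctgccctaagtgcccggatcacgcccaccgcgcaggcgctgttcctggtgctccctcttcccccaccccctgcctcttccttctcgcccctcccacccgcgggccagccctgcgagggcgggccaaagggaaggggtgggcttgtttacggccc
HSP90AB1 internal start: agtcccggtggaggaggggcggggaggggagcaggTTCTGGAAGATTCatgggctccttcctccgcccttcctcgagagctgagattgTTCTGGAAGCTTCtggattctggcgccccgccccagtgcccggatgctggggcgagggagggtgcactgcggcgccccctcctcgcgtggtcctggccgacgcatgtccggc
CHORDC1: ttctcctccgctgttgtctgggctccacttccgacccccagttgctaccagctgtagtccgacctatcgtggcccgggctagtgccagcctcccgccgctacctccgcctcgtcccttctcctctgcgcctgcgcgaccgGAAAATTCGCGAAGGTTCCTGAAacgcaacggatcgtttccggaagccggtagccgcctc

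In HSP90AA1 the letters began 88 bases before the downstream start. In CHORDC1 the 3-unit matches began 60, 55 and 50 bases before its start and overlap in a single run. Transcripts starting in that CHORDC1 window held 67.63% and 65.55% of the gene's reads with MS1943 and 62.71% and 66.92% with DMSO. CHORDC1-201 starts outside it, at 90223364. HSP90AB1 had matches beginning 165 and 112 bases before the start at 44247943, which lies inside the gene. Most HSP90AB1 reads belonged to a transcript starting further upstream, at 44247087, in a window without these letters. In GENCODE 29 the main HSP90AA1 transcript starts at 102087191, upstream of the RefSeq site at 102087044, so the letters fall within its annotated first exon. The transcripts of the upstream region begin at 102139699 or later in the direction of reading, just past the upstream window. A match describes letters only. The windows of AHSA1, CDC37, FKBP5 and PTGES3 held neither form.

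**Figure D1:**
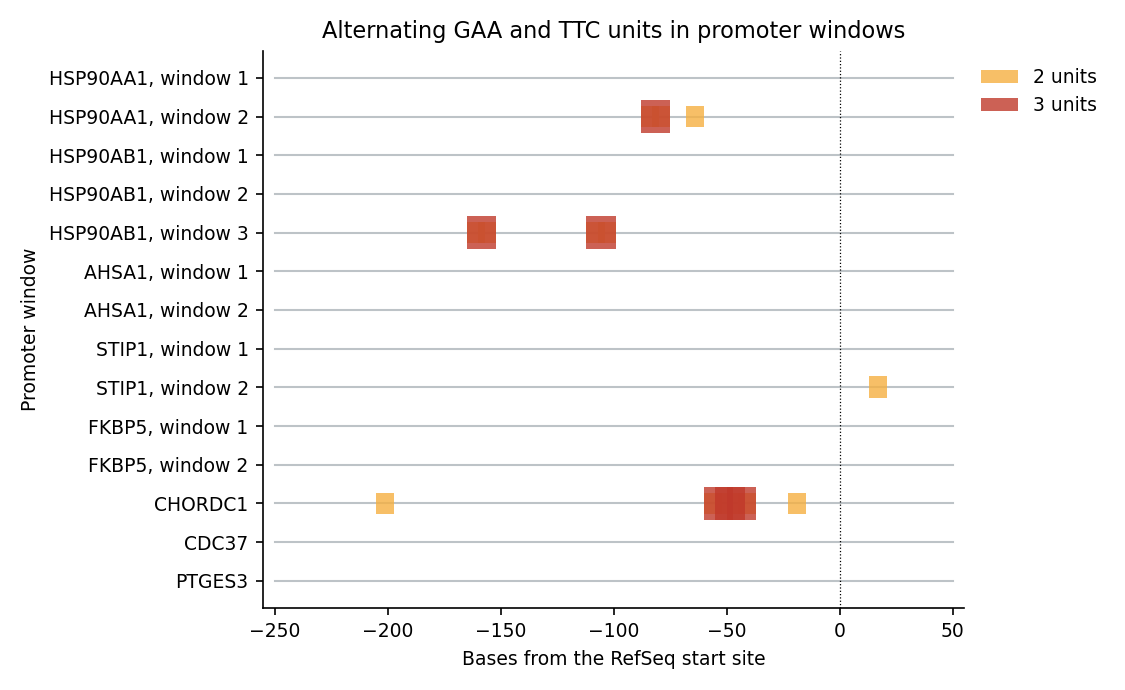
Positions of alternating GAA and TTC units in the 14 RefSeq promoter windows, in bases from the start site (x axis); each row is a window, orange blocks are 2-unit matches and red blocks 3-unit matches. Red blocks stand in 3 rows, for HSP90AA1 at its downstream start, for HSP90AB1 at its internal start and for CHORDC1.

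The libraries held 69878745 and 47564377 estimated reads with MS1943 and 64720699 and 71378893 with DMSO. None was taken for a copy of another, since the chi-square over genes between the 2 libraries of a group was 6.22 per degree of freedom with MS1943 and 6.92 with DMSO, above sampling noise. Mitochondrial genes took 3.50% and 3.09% of reads with MS1943 against 1.64% and 1.77% with DMSO. Epithelial markers were plainly present, at a sum of 4365 and 4381 CPM with MS1943 and 5470 and 5300 CPM with DMSO over 5 genes. Of these KRT8 (log2 fold change -0.656), KRT19 (-0.273) and CDH1 (-0.242) were called lower by edgeR, and EPCAM (-0.01) and KRT18 (0.114) were not called. The 4 basal keratin genes KRT5, KRT14, KRT17 and KRT6A summed to 5538 and 4920 CPM with MS1943 and 1577 and 1556 CPM with DMSO, with log2 fold changes of 1.865 for KRT5, 0.23 for KRT14, 1.66 for KRT17 and 6.48 for KRT6A, each called higher by edgeR. Of 8 leukocyte markers, 6 stayed under 1 CPM in every library, PTPRC among them, and of 6 fibroblast and 4 endothelial markers 4 and 3 did. The leukocyte list summed to 118 and 117 CPM with MS1943 and 165 and 148 CPM with DMSO, nearly all of it from CD14 and CD68. CD14 stood at 86.2 and 87.4 CPM with MS1943 and 163 and 147 CPM with DMSO, and CD68 at 32.0 and 29.7 CPM with MS1943 and 1.08 and 0.83 CPM with DMSO. The fibroblast list summed to 32.5 and 28.8 CPM with MS1943 and 24.8 and 24.3 CPM with DMSO, and the endothelial list to 2.47 and 2.67 CPM with MS1943 and 6.20 and 5.90 CPM with DMSO. Within the fibroblast list COL1A1 was called higher (log2 fold change 0.505) and PDGFRA lower (-2.15), and all 4 endothelial genes were called lower. Their part in the results was not tested.

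Of the 10 genes, 7 were higher with MS1943, 2 were lower and PTGES3 did not pass the test. The background is wide, since 59.3% of 19358 tested genes were called, 30.0% higher and 29.4% lower. The test was the edgeR quasi-likelihood test with Benjamini-Hochberg adjustment at a threshold of 0.05. That background includes many genes with few reads. With the filter at an average of 1 CPM, 10174 of 13932 genes were called, a larger share. Values per gene are counts per 1e6 reads after TMM scaling (CPM), and each bracketed fold change below is log2 of MS1943 over DMSO ± SE. The median log2 fold change was 0.46 over the 10 genes and -0.01 over all genes tested. All 10 passed the low-count filter, with at least 2420 reads in every library. Scaling by total reads shifted the median of all genes to -0.12 and the share of calls that were higher to 39.8%, against 50.5% with TMM. Directions are therefore relative to TMM scaling; with total reads 7 of the 10 were higher and 3 lower. In such bulk RNA, fewer cells of a kind and less RNA per cell cannot be told apart. In TPM, which scales for transcript length, the 10 genes made up 0.50% and 0.50% of all transcripts with MS1943 and 0.37% and 0.37% with DMSO.

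**Figure D2:**
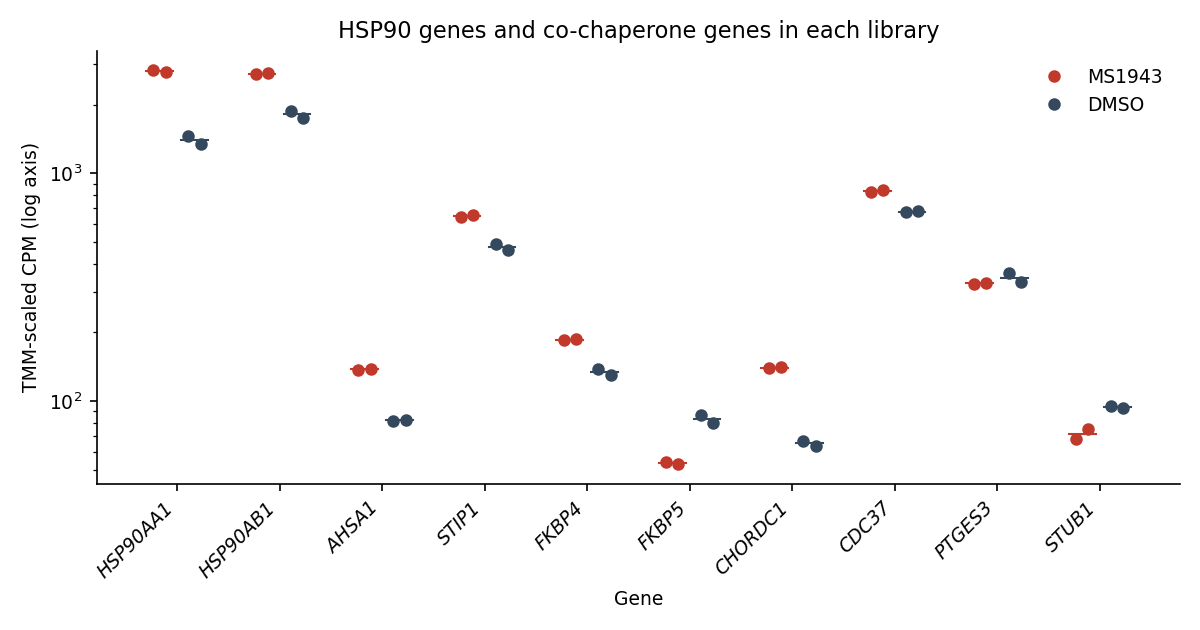
TMM-scaled CPM (log axis) of the 10 genes in each library, with MS1943 left of DMSO; points are libraries and lines are means of 2. HSP90AA1 sits at 2822 and 2770.3 CPM with MS1943 and at 1460.5 and 1344 CPM with DMSO, and FKBP5 at 54.0 and 52.9 against 86.4 and 80.1 CPM.

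Both chaperone genes rose. HSP90AA1 (ENSG00000080824, chromosome 14, 102080738 to 102139699) had 2822 and 2770.3 CPM in the MS1943 libraries, against 1460.5 and 1344 CPM in the DMSO libraries. The groups lay far apart, and the gene rose 1.99-fold (log2 fold change 0.996 ± 0.066 SE, edgeR adjusted p = 1.69e-10). HSP90AB1 (ENSG00000096384, chromosome 6, 44246166 to 44253888) had 2711 and 2751 CPM with MS1943, against 1879 and 1745 CPM with DMSO. It rose 1.51-fold (0.59 ± 0.07, edgeR adjusted p = 2.29e-07), again without overlap. In TPM the ratio of HSP90AA1 to HSP90AB1 was 0.88 and 0.83 with MS1943 and 0.60 and 0.64 with DMSO. The ratio was higher in both MS1943 libraries. It was not tested, since 2 against 2 libraries cannot give an exact permutation p below 0.333. In TPM the beta form was the more abundant in every library. The 2 genes share no 31-base word in the transcript set, and their processed pseudogenes held at most 0.018% of the parent gene's reads in any library.

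The higher HSP90AA1 level stood in transcripts of the downstream start. HSP90AA1-201, the main transcript, had 1091 and 1082 TPM with MS1943 and 594 and 557 TPM with DMSO. HSP90AA1-202 begins in the upstream region at 102139686 and had 35.9 and 31.1 TPM with MS1943 against 42.5 and 43.4 TPM with DMSO. In TPM, HSP90AA1-201 was thus higher and HSP90AA1-202 lower in each MS1943 library than in either DMSO library. TPM does not carry the TMM scaling, on which the direction of a small difference can depend. All 3 transcripts with an upstream start held 3.12% ± 0.27 of the gene's reads with MS1943 and 7.28% ± 0.34 with DMSO (SD, n = 2 each). The 3 that begin within the window holding the 3-unit letters held 96.2% ± 0.27 with MS1943 and 92.4% ± 0.40 with DMSO. These transcript values were not tested, and they rest on Salmon's division of shared reads. WDR20, which overlaps HSP90AA1 over 197 exonic bases on the opposite strand, had 28.04 and 30.77 CPM with MS1943 and 29.5 and 27.9 CPM with DMSO and was not called. HSP90AB1 showed no such mixture, as HSP90AB1-203 held 99.2% ± 0.07 of its reads with MS1943 and 99.3% ± 0.02 with DMSO.

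**Figure D3:**
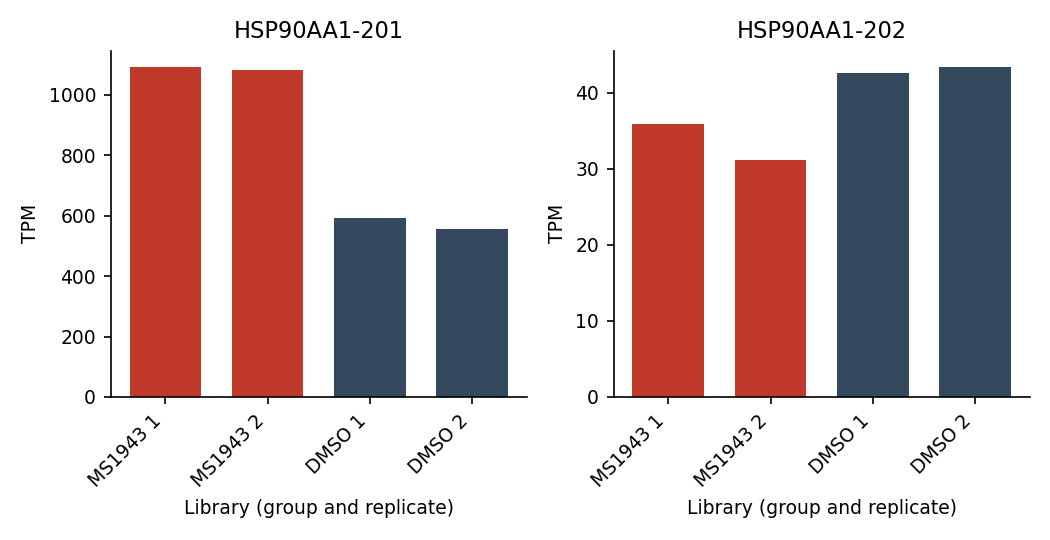
TPM of 2 HSP90AA1 transcripts in each library (bars, axes from 0, a different scale in each panel), MS1943 in red and DMSO in blue. HSP90AA1-201, of the downstream start, is higher in both MS1943 libraries, and HSP90AA1-202, of the upstream start, is lower in both.

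CHORDC1 and AHSA1, which both bind HSP90 directly, stood next to HSP90AA1 in size of change. CHORDC1 (ENSG00000110172, chromosome 11, 90201160 to 90223364) encodes a zinc-binding co-chaperone. It had 139.6 and 140.3 CPM with MS1943, against 66.7 and 63.7 CPM with DMSO. It rose 2.15-fold (1.10 ± 0.06, edgeR adjusted p = 2.22e-12), the highest fold of the 10. Its 2 main transcripts kept similar shares: CHORDC1-202 held 45.6% ± 0.13 with MS1943 and 44.3% ± 1.67 with DMSO, and CHORDC1-201 held 30.8% ± 1.62 and 32.0% ± 3.50. AHSA1 (ENSG00000100591, chromosome 14, 77457870 to 77469474) encodes the activator of the HSP90 ATPase. It had 136.5 and 138.5 CPM with MS1943, against 82.0 and 82.8 CPM with DMSO. The libraries within each group were close, and the gene rose 1.67-fold (0.74 ± 0.05, edgeR adjusted p = 5.2e-10). AHSA1 TPM per 100 TPM of the 2 HSP90 genes was 6.61 and 7.03 with MS1943 and 6.71 and 6.91 with DMSO. Over all AHSA1 transcripts the groups thus overlapped. These include AHSA1-204, annotated as a retained intron, at 37.4 and 45.8 TPM with MS1943 and 22.7 and 19.1 TPM with DMSO. The main coding form AHSA1-201 had 136.1 and 135.6 TPM against 88.3 and 92.7 TPM, and its ratio to HSP90 was not computed. AHSA1 overlaps the opposite-strand gene VIPAS39 over 83 exonic bases, and VIPAS39, at 25.9 and 24.4 CPM with MS1943 and 15.8 and 15.3 CPM with DMSO, also rose (0.70 ± 0.07).

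The co-chaperones that load clients onto HSP90 rose with smaller folds. STIP1 (ENSG00000168439, chromosome 11, 64185272 to 64204543) encodes HOP, which bridges HSP70 and HSP90. It had 642 and 656 CPM with MS1943, against 490.2 and 461 CPM with DMSO (0.45 ± 0.06, edgeR adjusted p = 2.4e-06). CDC37 (ENSG00000105401, chromosome 19, 10391134 to 10420121) encodes the adaptor that delivers kinases to HSP90. It had 825 and 842 CPM with MS1943, against 673 and 683 CPM with DMSO (0.30 ± 0.06, edgeR adjusted p = 0.000221). Neither gene's groups overlapped. CDC37 stayed called with total-read scaling, but at 0.19. Per 100 TPM of the 2 HSP90 genes, CDC37 stood at 29.3 and 30.2 TPM with MS1943 and 40.2 and 42.9 TPM with DMSO, and STIP1 at 15.6 and 16.2 against 20.1 and 19.8 TPM. Both were thus lower per HSP90 transcript in each MS1943 library.

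The 2 large immunophilins moved in opposite directions. Both bind HSP90 in steroid receptor complexes, where FKBP4 (FKBP52) is known to favour and FKBP5 (FKBP51) to restrain receptor activity. FKBP4 (ENSG00000004478, chromosome 12, 2794953 to 2805423) had 185 and 187 CPM with MS1943, against 138 and 130.2 CPM with DMSO. It rose 1.39-fold (0.47 ± 0.06, edgeR adjusted p = 4.44e-07). FKBP5 (ENSG00000096060, chromosome 6, 35573585 to 35728583) had 54.0 and 52.9 CPM with MS1943, against 86.4 and 80.1 CPM with DMSO. It fell to 0.64 of the DMSO level (-0.64 ± 0.06, edgeR adjusted p = 1.21e-08). In TPM the ratio of FKBP4 to FKBP5 was 3.92 and 4.16 with MS1943 and 1.87 and 1.89 with DMSO, without overlap. FKBP5-201 held over 98% of the gene's reads in every library, so the fall lay in its main form.

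STUB1 fell and PTGES3 was not called. STUB1 (ENSG00000103266, chromosome 16, 680224 to 682870) encodes CHIP, the ubiquitin ligase that marks chaperone-bound clients for the proteasome. It had 68.2 and 75.2 CPM with MS1943, against 95.3 and 92.9 CPM with DMSO (-0.39 ± 0.06, edgeR adjusted p = 9.42e-06), and the groups did not overlap. Its main coding transcript STUB1-201 had 62.6 and 62.3 TPM with MS1943 and 98.9 and 98.0 TPM with DMSO. That transcript held 86.4% and 77.7% of the gene's reads with MS1943 and 90.3% and 88.9% with DMSO. The retained-intron form STUB1-202 varied between the MS1943 libraries, at 1.86 and 9.60 TPM, against 5.48 and 6.93 TPM with DMSO. STUB1 overlaps the opposite-strand gene JMJD8 over 983 of its 2316 exonic bases. JMJD8 fell by a like amount (-0.39 ± 0.06), and reads of the shared stretch cannot be told apart without strand. PTGES3 (ENSG00000110958, chromosome 12, 56663341 to 56688408) encodes p23, which holds HSP90 in its closed, client-bound state. It had 326 and 331 CPM with MS1943, against 364 and 332 CPM with DMSO (-0.08 ± 0.06, edgeR adjusted p = 0.245). The MS1943 libraries lay just below the lower DMSO library. Scaling by total reads gave a lower call (-0.20, adjusted p = 0.00341), as did leaving out DMSO replicate 2 (-0.15, adjusted p = 0.0148). Without DMSO replicate 1 the value was -0.02.

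**Figure D4:**
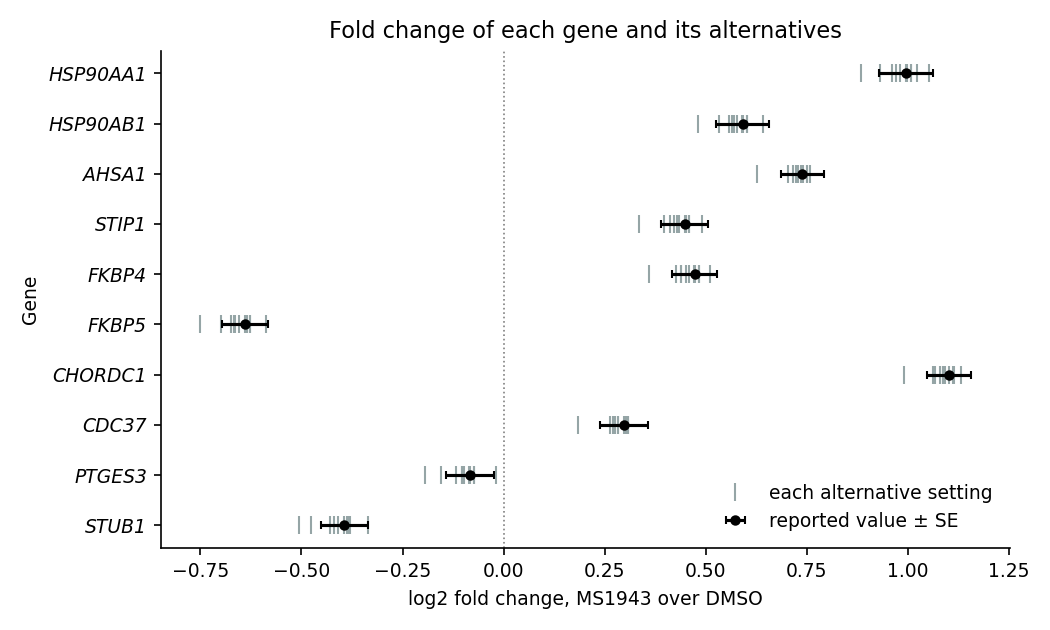
Log2 fold change of each gene, MS1943 over DMSO; black points with bars are the reported value ± SE and grey ticks are the 11 alternative settings. HSP90AA1 and CHORDC1 lie near 1, FKBP5 and STUB1 lie below 0 in every setting, and the ticks of PTGES3 run from -0.20 to -0.02.

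Per length, the levels spanned a wide range. With MS1943 the order was HSP90AB1 (1511 ± 17.5 TPM), HSP90AA1 (1288 ± 42.6), CDC37 (834 ± 10.6), STIP1 (445 ± 9.26), PTGES3 (285 ± 5.99), AHSA1 (191 ± 6.68), CHORDC1 (147 ± 7.72), STUB1 (84.9 ± 10.9), FKBP4 (78.0 ± 2.24) and FKBP5 (19.3 ± 0.27; mean TPM ± SD, n = 2). With DMSO, CDC37 (740.0 ± 27.6 TPM) stood above HSP90AA1 (683 ± 16.6), and STUB1 (119 ± 2.45) above CHORDC1 (74.9 ± 1.54). Neighbours that overlapped were STUB1 and FKBP4 with MS1943, and AHSA1 (121 ± 1.49) and STUB1 with DMSO. The 8 co-chaperones together had 2057 and 2111 TPM with MS1943 and 1824 and 1846 TPM with DMSO, while the 2 HSP90 genes had 2817 and 2781 TPM against 1790.4 and 1771 TPM. HSP90AA1's TPM includes HSP90AA1-203, a short transcript at 161 and 116 TPM with MS1943 and 20.1 and 78.3 TPM with DMSO, whose estimate varied widely between DMSO libraries.

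Outside the 10, most listed co-chaperone genes were higher with MS1943 too. Of 25 other listed HSP90 co-chaperone genes, 17 rose, 4 fell and 4 did not pass, with a median log2 fold change of 0.25. The share called was 84%, beside 59.3% of all genes tested. With the filter at an average of 1 CPM, 21 of the 25 were called, beside 10174 of 13932 genes. With total-read scaling 13 rose and 7 fell. The list includes AHSA2P, annotated as a transcribed unitary pseudogene, which was not called (-0.11 ± 0.08). PPID, the cyclophilin 40 gene, had 50.9 ± 2.03 CPM with MS1943 and 23.0 ± 1.33 CPM with DMSO (1.145 ± 0.064, edgeR adjusted p = 1.42e-11; SD, n = 2 each). FNIP2 (0.90 ± 0.07) and FNIP1 (0.63 ± 0.06), whose products slow the HSP90 ATPase, and TTC4 (0.63 ± 0.06) rose. The fallers were FKBP8 (-0.43 ± 0.06), NUDCD2 (-0.45 ± 0.06), NUDCD1 (-0.18 ± 0.06) and PPP5C (-0.13 ± 0.05), named after their values were seen. The calls of NUDCD1 and PPP5C ended in several settings, among them DESeq2 (adjusted p = 0.0835 and 0.0804) and without DMSO replicate 1 (0.0923 and 0.12). Of the HSP90 genes of other compartments, HSP90B1, the form of the endoplasmic reticulum, had 602 ± 1.24 CPM with MS1943 and 534 ± 34.9 CPM with DMSO (0.17 ± 0.06, edgeR adjusted p = 0.021). That call ended when reads were scaled by their total (0.06, adjusted p = 0.271) and when no low-count filter was used (adjusted p = 0.0907). It also ended without DMSO replicate 2 (0.10, adjusted p = 0.125), MS1943 replicate 1 (adjusted p = 0.0603) or MS1943 replicate 2 (adjusted p = 0.0549). TRAP1, the mitochondrial form, did not pass (0.10 ± 0.06, edgeR adjusted p = 0.115), though it did without DMSO replicate 1 (0.15, adjusted p = 0.0241).

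**Figure D5:**
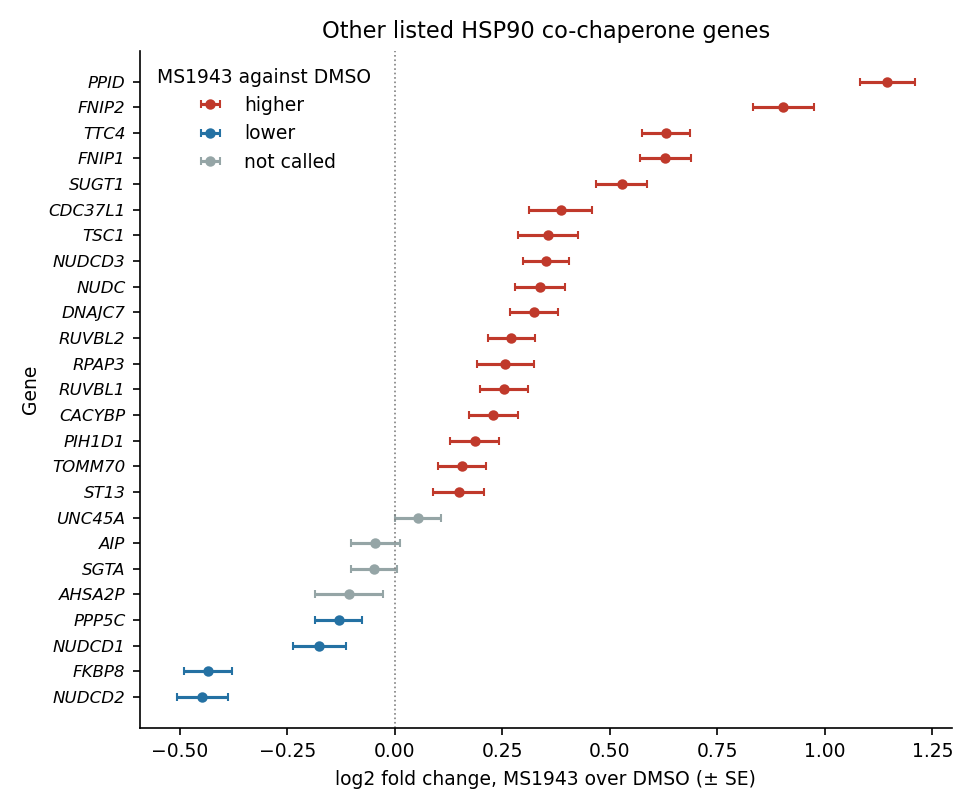
Log2 fold change ± SE, MS1943 over DMSO, of the 25 other listed HSP90 co-chaperone genes, the pseudogene AHSA2P included, in order of size. Red is higher, blue lower and grey not called. Of these genes 17 were called higher, with PPID at 1.145, and 4 were called lower.

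Genes that work beside the set were counted by list, beside 59.3% called over all genes tested (30.0% higher and 29.4% lower). The share called over all genes was larger, at 10174 of 13932, with the filter at an average of 1 CPM. Of 18 heat shock factor and heat shock genes, not all of them cytosolic, 15 rose, 2 did not pass and 1 fell (median 0.54, 88.9% called). The 2 that did not pass were HSPE1 (0.06 ± 0.05) and SERPINH1 (-0.11 ± 0.06), and CRYAB fell (-0.30 ± 0.06). These 3 were named with their values known. Log2 fold changes there reached far above those of the HSP90 genes, at 3.29 ± 0.07 for HSPA1A, 2.95 ± 0.07 for its near-identical copy HSPA1B, 1.90 ± 0.06 for DNAJB1 and 1.41 ± 0.06 for BAG3. The split of reads between HSPA1A and HSPA1B is uncertain. Of 22 kinases listed as HSP90 and CDC37 clients, 11 rose, 6 fell and 5 did not pass (median 0.13, 77.3% called). With total-read scaling 8 rose and 8 fell. How far each kinase depends on HSP90 in these cells was not tested. ULK1 (1.06 ± 0.06), EIF2AK2 (0.80 ± 0.06) and TBK1 (0.61 ± 0.06) rose and AKT1 fell (-0.56 ± 0.06). Of 11 ubiquitin enzymes and BAG regulators around STUB1, 4 rose, 3 fell and 4 did not pass (median 0.08). The share called, 63.6%, was near the 59.3% of all genes tested. With total-read scaling 3 rose and 4 fell. BAG2, an inhibitor of CHIP, rose (1.33 ± 0.06), with 87.7 ± 0.02 CPM with MS1943 and 34.9 ± 2.49 CPM with DMSO. UBE2D1, an E2 enzyme of CHIP, rose (0.33 ± 0.07), and UBE2N (-0.40 ± 0.06) and BAG1 (-0.43 ± 0.06) fell.

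FKBP5 is a known target of the glucocorticoid receptor, and that receptor's gene and other targets were read beside it. NR3C1, the receptor gene, had 70.0 ± 0.99 CPM with MS1943 and 58.2 ± 3.08 CPM with DMSO (0.27 ± 0.06, edgeR adjusted p = 0.000478), a call that ended with the transcript length offset (0.20, adjusted p = 0.0655). Of 12 other glucocorticoid-induced genes, 6 rose, 3 fell and 3 did not pass (median 0.31). The share called was 75%, beside 59.3% of all genes tested, or 10174 of 13932 with the filter at an average of 1 CPM. With total-read scaling 5 rose and 4 fell. SGK1 (1.51 ± 0.06) and DUSP1 (1.48 ± 0.08) rose, and GLUL (-0.88 ± 0.06) and NFKBIA (-0.58 ± 0.06) fell, so directions among these genes were mixed. Of 4 steroid receptor genes tested, 3 rose, beside 30.0% called higher over all genes tested. With total-read scaling 3 rose and 1 fell. ESR1 had 4.97 ± 0.20 CPM with MS1943 and 3.21 ± 0.05 CPM with DMSO (0.63 ± 0.13), a call lost with the length offset (adjusted p = 0.139). ESR2 stayed under 1 CPM in every library, and its rise (1.245 ± 0.402, edgeR adjusted p = 0.012) ended with DESeq2 (adjusted p = 0.0558) and when DMSO replicate 1 (0.68, adjusted p = 0.132) or MS1943 replicate 2 (adjusted p = 0.0613) was left out. Without DMSO replicate 2 it was 2.28. NR3C2, at 2.17 ± 0.19 CPM with MS1943 and 2.77 ± 0.25 CPM with DMSO, did not pass (adjusted p = 0.0708), but was called lower when DMSO replicate 1 was left out (adjusted p = 0.042) or reads were scaled by their total (adjusted p = 0.0269). PGR had 0 reads in every library, which allows up to 0.063 CPM at a floor of 3 reads in the shallowest library.

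The protein-coding genes whose values over the 4 libraries were most like those of HSP90AA1 were RIOK3, UBE2H, CLIP2, NPAS2 and BCAR3. Likeness was the Euclidean distance of log2 CPM centred on the DMSO mean, searched over the 6579 genes that averaged 5 or more in log2 CPM. Distances ran from 0.025 for RIOK3 to 0.047 for BCAR3, and their log2 fold changes from 0.999 to 1.02. With 2 libraries a group, such likeness describes little beyond the fold change.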

How the data were processed

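Poly(A)-selected RNA of 4 MDA-MB-468 libraries was analysed, grouped by the treatment label and numbered within a group in sample order. The library kit was TruSeq v2, per the labels' protocols. Strand is not kept by that kit, which leaves overlapping genes on opposite strands inseparable. The submitters' processing notes name Salmon 0.9.1, R 3.4.3, DESeq2 and build hg38. No source used here gives the transcript release or Salmon's options.

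The estimated counts are Salmon's reads per transcript, per the file headers, and need not be whole. The TPM values are Salmon's abundances scaled for transcript length, per the file headers. Salmon divides reads among transcripts that share sequence, and the files carry no error of that division. Of 197653 transcripts in each file, 193505 matched GENCODE 29 by identifier without version. The 4148 others held 0.482% to 0.496% of the reads and were left out. Pseudoautosomal copies were merged. Reads and TPM were summed over 56865 genes, and the reads were rounded.

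Genes kept by filterByExpr were scaled by TMM and fitted with treatment as the only term, using the quasi-likelihood test of edgeR 4.0.16 (R 4.3.3). Benjamini-Hochberg adjustment ran over 19358 tested genes at a threshold of 0.05. A standard error is the log2 fold change divided by the square root of F. The alternatives were DESeq2 1.42.0, RLE and total-read scaling, no low-count filter, a filter at an average of 1 CPM, an offset for transcript length, pseudogene reads added to their parent genes, and each library left out. Gene positions are those of GENCODE 29 on hg38. Promoter sequences come from RefSeq on GRCh38.p14.

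The 10 genes and the other lists were chosen with earlier results of these data known. Named genes are the 10 members and, of each other list, up to 4 called genes with the smallest adjusted p, or every gene of a list of up to 6. Genes outside that rule were chosen after their values were seen. A planned protein comparison of HSP90AA1 and HSP90AB1 was not made, as no protein sequence was used here.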

Additional observations from a re-analysis of the deposited data

How the results depend on the processing

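Under DESeq2, RLE scaling, either other filter, the length offset, added pseudogene reads and without any single library, 7 of the 10 genes stayed higher and FKBP5 and STUB1 lower, as with total-read scaling. PTGES3 was called lower with total-read scaling (-0.20), and its values without one library ran from -0.154 to -0.019, past the threshold without DMSO replicate 2. The count of called HSP90 genes of other compartments, 1 of 2, became 0 with total-read scaling and with no low-count filter, and ran from 0 to 2 without one library. The count of called steroid receptor genes, 3, became 1 with the length offset. The cause of these shifts was not tested. When 1 library is left out, the lone library of its group is assumed to vary like the others. No paired analysis was possible because the labels carry no replicate numbers and do not say that any libraries are pairs; the numbers used here only name libraries. Depth does not limit the 10 genes, while PGR and ESR2 are too low to follow.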

Other observations

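After the values were seen, the letters of 3 alternating GAA and TTC units were read across all tested genes that have a RefSeq promoter window. Of 66 such genes with the letters in a window, 27 were higher with MS1943 and 14 lower, with a median log2 fold change of 0.18. Without HSP90AA1, HSP90AB1 and CHORDC1 the count was 24 higher and 14 lower of 63, with a median of 0.13. Over all 12771 tested genes with a window, 33.0% were higher and 32.2% lower, with a median of -0.01. These are counts without a test.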
